A study of Homo sapiens with 10 samples.

Results

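The peaks described here are the multi-block peaks of 5 m6A peak lists, that is, all peaks deposited as 2 or more separate blocks on the genome with a gap between neighbouring blocks. They numbered 4681 of 16319 peaks (28.7%), and the remaining 11638 peaks were single blocks. The count of blocks in each line of a list chose them, and no signal value was used. Of the 4681, 3272 had exactly 2 blocks and so sat next to the limit of the rule.

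The study mapped N6-methyladenosine (m6A) by MeRIP-seq, in which an antibody against the mark enriches modified RNA fragments for sequencing, beside input RNA that skips this step. The RNA was total RNA of V16A, an established cell line of castration-resistant prostate cancer, and the title asks about m6A on nascent RNA and a T cell activation signature under hypoxia. Pulled-down libraries were 2 of V16A cells under hypoxia, 1 labelled EU and 40 min, and 2 of V16A cells under normoxia. EU is read here as ethynyl uridine, a nucleoside that enters newly made RNA. Under which oxygen condition EU was given, the oxygen level and the duration of hypoxia are not in the labels. The labels also do not say whether replicates were separate cultures, so p-values measure only how these libraries vary, and part of that may be technical. The 5 inputs were not analysed here, library depths are unknown, and a list tells only whether a peak was called. The EU library has no replicate.

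m6A is placed on nascent RNA by a methyltransferase complex built around METTL3 and METTL14, mostly inside a short sequence motif. Splicing leaves an exon junction complex just upstream of each junction, and this complex is known to keep the mark away from nearby adenosines, so that m6A is typically found in long internal exons and in last exons near the stop codon. MeRIP-seq resolves the mark only to the length of the RNA fragments, and a peak can therefore cover a junction without the mark lying on it.

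Sequence at the ends of gaps could be read where a gap end fell within a 300-base RefSeq window at an annotated gene start (GRCh38.p14). Most introns begin with GT and end with AG. At the 5′ end of the gap, 83 of 86 readable ends (96.5%) had GT, 2 had GC and 1 had GG. At the 3′ end, 18 of 80 (22.5%) had AG. The following ends are shown because their gaps were found in the most libraries, or because they depart from GT or AG; each has 15 bases on either side of the border, 5′ to 3′ on the strand of the peak, and capitals mark the first or last pair of bases inside the gap.
GZMB, start of a gap of 195 bases, chr14:24632900-24632929, minus strand: tcactgttggggaagGTgaggagcagaaaa
GZMB, end of a gap of 834 bases, chr14:24633061-24633090, minus strand: cccacaagcagacAGacttttccttcaggg
NKG7, start of a gap of 104 bases, chr19:51371925-51371954, minus strand: tcttgctctgtacagGTgactatcctgccc
NKG7, end of the same gap, chr19:51371821-51371850, minus strand: tttctggctccccAGgtgccctgagcctgg
B2M, start of a gap of 313 bases, chr15:44711599-44711628, plus strand: tggaggctatccagcGTgagtctctcctac
VIM, start of a gap of 18 bases, chr10:17229971-17230000, plus strand: gcgcctccgggagaaGTaaggctgcgccca
VIM, end of the same gap, chr10:17229989-17230018, plus strand: aggctgcgcccatGCaagtagctgggcctc
CBLB, start of a gap of 1144 bases, chr3:105868721-105868750, minus strand: ctacggcgccgaaagGCaagaagggaaggg
TNIP1, end of a gap of 13271 bases, chr5:151065117-151065146, minus strand: ctgttgtccttacAGccaggcgggcaccac
TPM4, end of a gap of 323 bases, chr19:16077006-16077035, plus strand: gggagggggcgtaTCgtgcaggctccgact
The NKG7 gap began with GT and ended with AG. In GZMB, AG closed the gap before a block of 161 bases and GT opened the gap after it. In TPM4, by contrast, the block after the gap began 5 bases downstream of a RefSeq gene start, with TC as the last letters of the gap. Among the 62 gap ends without AG, 54 lay in a window of the same strand, and in 45 of those 54 the next block began within 50 bases of the annotated start. Among the 18 with AG, 8 lay in a window of the same strand and 3 of those 8 were as close. These windows lie at gene starts by construction, so the shares are not shares of all gaps, and a genome sequence for the other gaps was not used here.

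The name splice junction does not hold for every member. Of 5465 distinct gaps, 45 (0.823%) were shorter than 50 bases and 7 were 1 base long. The 1-base gaps lay in TICAM1 (an adaptor of innate immune signalling), DAPK3 (a death-associated kinase) and DDX42 (an RNA helicase). In TICAM1, a peak of the EU library (chr19:4817815-4817970) was cut into 6 blocks of 17, 12, 3, 39, 3 and 77 bases by gaps of 1 base each. The members are therefore called multi-block peaks below.

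The libraries differed in more than their labels, and this bears on every comparison of conditions. Hypoxia replicates 1 and 2 held 2879 and 6621 peaks and the EU library 5044, against 212 in normoxia replicate 1 and 1563 in normoxia replicate 2. Of 15 marker genes of T and NK cells, cells that a prostate line should not hold, 10, 12, 12, 5 and 0 had a peak in hypoxia 1, hypoxia 2, EU, normoxia 1 and normoxia 2, and 10, 12, 8, 3 and 0 had a multi-block peak. Of 10 markers of prostate epithelium, 1, 3, 6, 0 and 4 had a peak, and 0, 1, 1, 0 and 1 a multi-block peak. Normoxia replicate 1 thus held markers of T and NK cells and none of the prostate list, and normoxia replicate 2 the reverse. In all, 1258, 2151, 2389, 139 and 897 genes had a peak in these lists, in the same order. With only 139 genes in normoxia replicate 1, a marker without a peak there says little about the cells. None of 5 macrophage markers had a peak in any of the 5 lists, and of 6 markers of fibroblasts and endothelium only PECAM1 did, in hypoxia replicate 2. In bulk RNA, fewer cells of a type and less RNA per cell cannot be told apart, and the part of these markers in the results was not tested beyond the values given with them.

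The multi-block share was 35.9% in hypoxia replicate 1 (1034 of 2879 peaks, exact binomial 95% interval 34.2 to 37.7) and 36.7% in hypoxia replicate 2 (2429 of 6621, 35.5 to 37.9). It was 19.8% in the EU library (1000 of 5044, 18.7 to 21.0). It was 29.7% in normoxia replicate 1 (63 of 212, 23.7 to 36.4) and 9.92% in normoxia replicate 2 (155 of 1563, 8.48 to 11.5). Intervals cover counting error only. Both hypoxia libraries lay above both normoxia libraries, with means of 36.3% ± 0.545 under hypoxia and 19.8% ± 14.0 under normoxia (SD, n = 2 each). The difference was 16.5 percentage points, with p = 0.33 in a two-sided exact permutation test, the smallest p that 2 libraries against 2 allow. The 2 normoxia libraries were farther apart than the means of the conditions, and the difference was 6.58 points without normoxia replicate 2 and 26.4 points without normoxia replicate 1. The EU library lay below both hypoxia libraries and normoxia replicate 1 and above normoxia replicate 2. EU minus the mean of the other 4 was -8.23 points, with -14.3 points when normoxia replicate 2 was left out and -5.36 points when hypoxia replicate 2 was left out.

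Restricting the peaks to the 496 genes that had a peak in at least 1 hypoxia and 1 normoxia library changed the order of the libraries. The share was then 27.3% and 27.5% in the hypoxia libraries, 20.4% in the EU library, and 31.4% and 11.1% in normoxia replicates 1 and 2. The conditions overlapped there, and the difference was 6.17 points (two-sided exact permutation p = 1). Leaving out all genes of 3 lists of immune function (T and NK cell markers, T cell receptor signalling and antigen presentation) left the difference at 16.4 points. This kept 2757 of 2879 and 6396 of 6621 peaks in hypoxia replicates 1 and 2. In normoxia replicates 1 and 2 it kept 191 of 212 and 1557 of 1563. So few peaks removed could move the difference little, and leukocyte genes outside the lists stayed in. Both of these settings were chosen after the data had been seen.

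**Figure D1:**
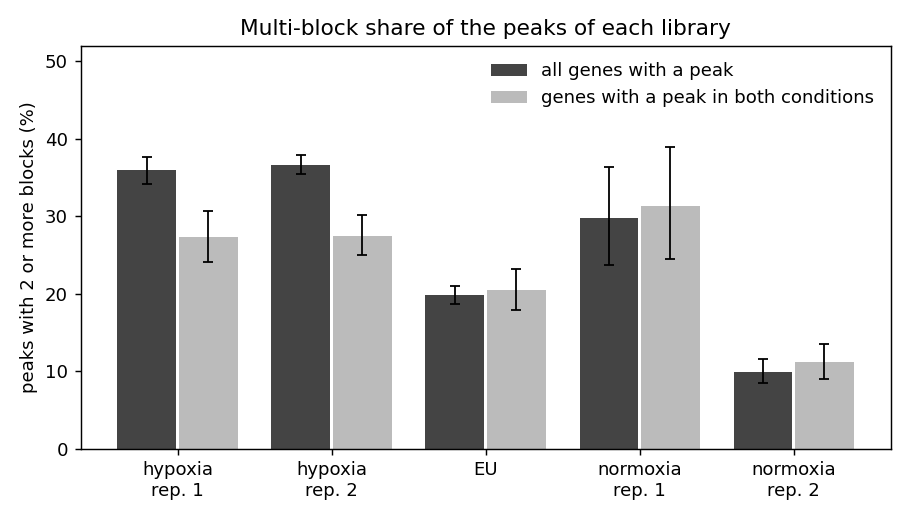
Share of peaks with 2 or more blocks (y axis, percent) in each pulled-down library (x axis), over all genes with a peak (dark bars) and over the 496 genes with a peak in both conditions (light bars); error bars are exact binomial 95% intervals and cover counting error only. Normoxia replicate 2 is lowest in both, at 9.92% and 11.1%, and normoxia replicate 1 is the highest of the light bars, at 31.4%.

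Most multi-block peaks covered 1 gap. Peaks of 2 blocks made up 73.7% and 64.6% of the multi-block peaks in hypoxia replicates 1 and 2, 75.4% in the EU library, and 79.4% and 88.4% in normoxia replicates 1 and 2. The longest chain was a peak of 21 blocks in ADAM19, a membrane-anchored metalloprotease, in hypoxia replicate 2 (chr5:157481900-157570507, minus strand), with 2486 bases of block over a span of 88608 bases. It was followed by MSN (moesin, which links the cell cortex to actin) with 13 blocks, and by LCP1 (an actin-bundling protein of leukocytes), PTPRC (the CD45 phosphatase of leukocytes) and EZR (ezrin, a relative of moesin) with 12 blocks each. All 5 of these peaks were in hypoxia replicate 2.

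The gaps had medians of 1060 and 1182 bases in hypoxia replicates 1 and 2, 1136 bases in the EU library, and 587 and 958.5 bases in normoxia replicates 1 and 2. Over the 5465 distinct gaps the quartiles were 344, 1153 and 3064 bases, and 395 gaps (7.23%) were longer than 10000 bases. The longest was a gap of 150705 bases in HMGB1 (a chromatin protein) in the EU library, between blocks of 30 and 70 bases. The next was a gap of 112539 bases in ANKRD44 in hypoxia replicate 2. Few gaps held another peak of the same gene and strand. Between 0% and 1.94% of the multi-block peaks of a library had another peak of the same gene with at least 1 base in a gap, with each of the 5 lists searched in turn. With the list of normoxia replicate 1, which held only 212 peaks, this was 0% for every library. Peaks of other genes were not counted. Whether these shares are low for lists of such lengths was not tested.

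The sum of the blocks, and not the span on the genome, followed fixed steps. Summed block length lay within 2 bases of a multiple of 50 in 90.7% and 90% of multi-block peaks in hypoxia replicates 1 and 2, 83.8% in EU, and 79.4% and 89.7% in normoxia replicates 1 and 2. The same held for 94.4%, 94.5%, 88.9%, 87.9% and 92.1% of single-block peaks in the same order. The blocks of a multi-block peak taken singly were on such a step in 9.33%, 10.01%, 9.09%, 12.5% and 10.3% of cases, and spans with gaps included in 11.2%, 10.5%, 9.90%, 15.9% and 8.39%. A tolerance of 2 bases on either side covers 5 of every 50 lengths. The steps were thus seen in the summed length and not in single blocks or spans.

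The blocks of a peak were unequal. The shortest block had a median of 33, 35, 38, 32 and 33 bases in hypoxia 1, hypoxia 2, EU, normoxia 1 and normoxia 2, and it was under 10 bases in 12.2%, 13.5%, 11.1%, 22.2% and 14.8% of multi-block peaks. The longest block held a median of 68.3%, 65%, 70.0%, 72.0% and 79.3% of the summed length. Blocks with a gap on both sides had medians of 100, 106, 101, 108 and 64 bases, from 409, 1427, 355, 18 and 19 such blocks. In GZMB, which encodes the cytotoxic protease granzyme B, the peaks of hypoxia replicate 1 and of the EU library were identical, with blocks of 26, 161, 1, 136 and 163 bases, and that of normoxia replicate 1 had blocks of 26, 161, 1 and 105 bases. A block of 1 base between gaps of 195 and 259 bases was thus seen in all 3, and hypoxia replicate 2 also had a peak with it.

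The medians of multi-block peaks were longer than those of single-block peaks in each library, by 1 to 49 bases. The median summed block length was 151 against 144 bases in hypoxia replicate 1, 199 against 150 in hypoxia replicate 2, 200 against 199 in EU, 151 against 149 in normoxia replicate 1 and 151 against 150 in normoxia replicate 2. The mean difference was 12 ± 20.8 bases (SD, n = 5 libraries) and positive in 5 of 5 (two-sided exact sign-flip test, p = 0.063, the smallest 5 libraries allow). It rested on hypoxia replicate 2, without which it was 2.75 bases, and it depended on which peaks were kept. It was 36.2 bases with lists shortened to the shortest and 31.1 with peaks of 100 to 200 bases, positive in 5 of 5 each time. With shortest blocks of at least 25 bases it was 40, also positive in 5 of 5. That limit removed multi-block peaks only and left all single-block peaks in, so the value is not a like comparison. In the hypoxia libraries the multi-block share was larger among longer peaks. It was 58.1% and 55.2% of peaks over 325 bases and 27.7% and 26.4% of peaks up to 125 bases in hypoxia replicates 1 and 2. In the EU library the same shares were 21.6% and 15.7%, in normoxia replicate 1 50% (6 of 12 peaks) and 21.2%, and in normoxia replicate 2 15.3% and 7.64%.

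**Figure D2:**
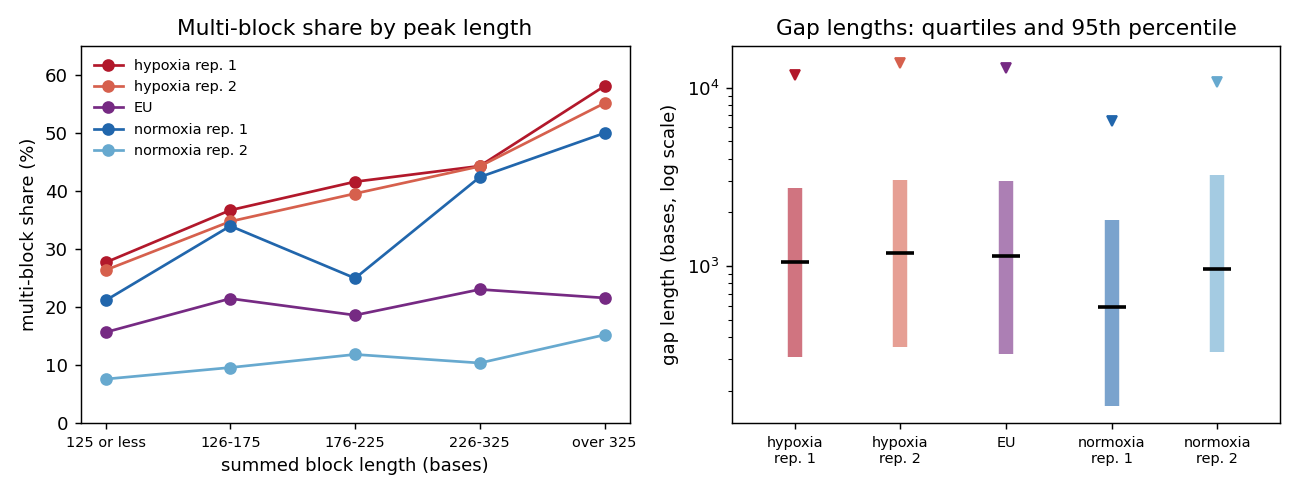
Left, multi-block share (y axis, percent) by summed block length of the peak (x axis, bases) in each library; right, gap lengths (y axis, bases, log scale) in each library, with bars from the lower to the upper quartile, black lines at the median and triangles at the 95th percentile. The lines of the hypoxia libraries climb to 58.1% and 55.2% above 325 bases while EU stays between 15.7% and 23.1%, and the gap medians lie between 587 and 1182 bases.

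Multi-block peaks lay in the body of the gene, and single-block peaks gathered at its 3′ end. Position was the midpoint of the peak within the RefSeq span of the gene, introns included, from 0% at the 5′ end to 100% at the 3′ end, for 4473 multi-block and 11125 single-block peaks in matched genes. The midpoint was that of the whole peak, gaps included, and could fall in a gap. A peak across an intron cannot lie wholly in the first or last exon. Part of the contrast here and below is thus set by the rule that chose the peaks, and how much was not tested. Median position was 57.8% against 78.3% in hypoxia replicate 1, 61.4% against 82.2% in hypoxia replicate 2, 64.9% against 81.9% in EU, 59.0% against 60.4% in normoxia replicate 1 and 65.5% against 77.1% in normoxia replicate 2. The mean difference was -14.3 ± 8.09 percentage points (SD, n = 5), lower for multi-block peaks in 5 of 5 libraries (two-sided exact sign-flip test, p = 0.063, the smallest possible). In normoxia replicate 1 the difference was -1.43 points, the smallest of the 5.

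The contrast was large in the last 10% of the gene span, where stop codons and last exons usually lie. It held 11.9% of multi-block against 35.5% of single-block peaks in hypoxia replicate 1, and 13.1% against 40.1% in hypoxia replicate 2. In EU the shares were 16.5% against 37.2%. In normoxia replicate 1 they were 6.45% against 28.9%, and in normoxia replicate 2 19.0% against 33.2%. The mean difference was -21.6 ± 4.74 points and negative in 5 of 5 libraries (SD, n = 5; two-sided exact sign-flip test, p = 0.063). Between 30% and 40% of the span, by contrast, multi-block peaks were 57.7%, 52.8%, 33.5%, 50% and 17.9% of all peaks in hypoxia 1, hypoxia 2, EU, normoxia 1 and normoxia 2, and in the last 10% of the span they were 15.6%, 15.9%, 9.82%, 9.30% and 5.92%. The stretch from 30% to 40% had the highest share of any in hypoxia 1, hypoxia 2 and EU, but not in the normoxia libraries. In normoxia replicates 1 and 2 it held 10 and 10 multi-block beside 10 and 46 single-block peaks. The first 10% of the span also held a smaller share of multi-block than of single-block peaks in 5 of 5 libraries. The mean difference was -3.86 ± 3.98 points (SD, n = 5, two-sided exact sign-flip test, p = 0.063). By library it was -3.39, -2.92, -1.68, -10.7 and -0.61 points in hypoxia 1, hypoxia 2, EU, normoxia 1 and normoxia 2. The largest, in normoxia replicate 1, came from 3 of 62 multi-block against 21 of 135 single-block peaks.

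The order also held within genes, by the same midpoints and with the same limit. Among genes with both kinds of peak in the same list, the multi-block peaks lay on average upstream of the single-block peaks in 270 of 387 genes (69.8%) in hypoxia replicate 1, 658 of 925 (71.1%) in hypoxia replicate 2 and 320 of 442 (72.4%) in EU. In normoxia replicates 1 and 2 this was 12 of 21 (57.1%) and 55 of 86 (64.0%). Genes differ in how many introns they have, and the genes with a multi-block peak had a median RefSeq span of 30321 bases against 18761 bases for genes with single-block peaks only.

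**Figure D3:**
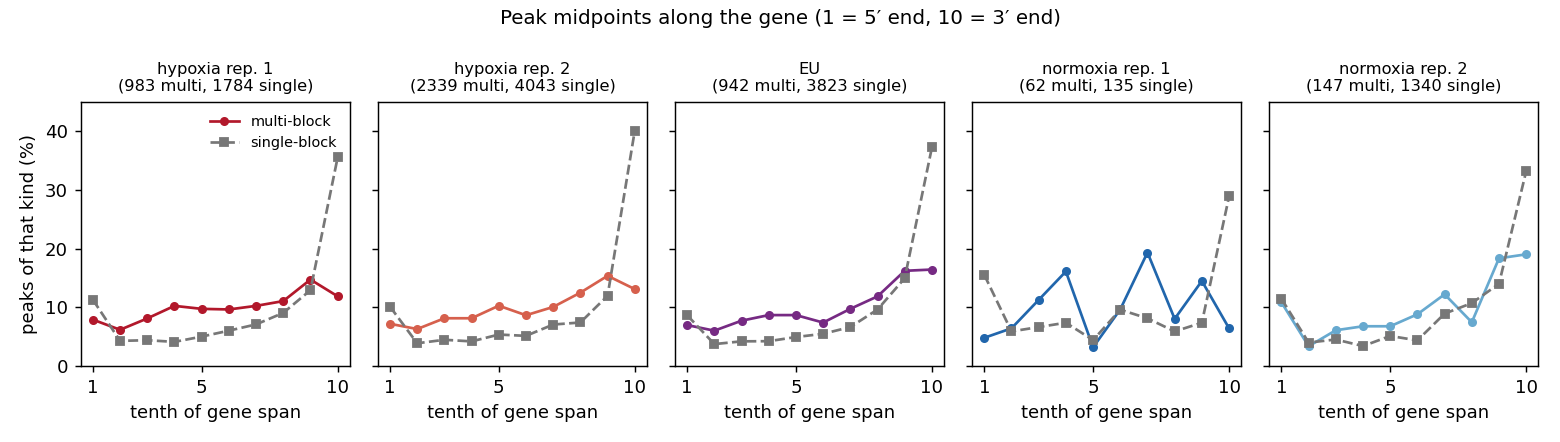
Peaks of each kind (y axis, percent of that kind in the library) by the stretch of 10% of the RefSeq gene span in which the midpoint lies (x axis, 1 at the 5′ end and 10 at the 3′ end), with multi-block peaks as solid lines and single-block peaks as dashed lines, and the number of peaks above each panel. Single-block peaks climb to between 28.9% and 40.1% in the last stretch, where multi-block peaks stay between 6.45% and 19.0%.

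The deposited p-value of a peak, taken as its rank within its own list (0 for the smallest p and 100 for the largest), was lower on the median for multi-block peaks in 4 of 5 libraries. Median ranks were 45.1 against 51.0 in hypoxia replicate 1, 51.1 against 49.6 in hypoxia replicate 2, 43.3 against 51.7 in EU, 42.4 against 55.5 in normoxia replicate 1 and 37.6 against 50.8 in normoxia replicate 2. The mean difference was -7.80 ± 6.03 (SD, n = 5; two-sided exact sign-flip test, p = 0.125). Hypoxia replicate 2 ran the other way, at 1.43. With each list shortened to its 212 smallest p-values the mean difference had the opposite sign, at 1.00.

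Gaps recurred between libraries to the base. The sources do not say how block borders were set, and whether the lists took them from a common source was not tested. Identical gaps, and gaps without other peaks, therefore need not be separate observations. Of the 4681 multi-block peaks, 1691 (36.1%, exact binomial 95% interval 34.7 to 37.5) had a gap with the same first and last base in another library. This was 51.6% in hypoxia replicate 1, 26.5% in hypoxia replicate 2, 41.4% in EU, 71.4% in normoxia replicate 1 and 34.8% in normoxia replicate 2. The share was highest in the shortest list and lowest in the longest. Without hypoxia replicate 1 the pooled share was 22.4%, and without hypoxia replicate 2 it was 23.4%. Where another library had any overlapping peak, the same gap was present in 87.5%, 76.8%, 78.4%, 93.8% and 59.3% of cases in hypoxia 1, hypoxia 2, EU, normoxia 1 and normoxia 2. The overlapping peaks were single-block only in 7.70%, 16.3%, 16.7%, 0% and 31.9%.

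By gap, 4358 of 5465 (79.7%) were found in 1 library, 864 in 2, 213 in 3, 29 in 4 and 1 in all 5. The largest shared set was the 489 gaps of both hypoxia libraries alone, followed by 277 of hypoxia replicate 2 with EU and 181 of both hypoxia libraries with EU. Of the 29 gaps in 4 libraries, 26 were in all but normoxia replicate 2 and 3 in all but normoxia replicate 1.

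The gap found in all 5 was in MALAT1, an abundant nuclear long non-coding RNA, at chr11:65500399-65500536 (138 bases). It separated blocks of 108 and 40 bases in both hypoxia libraries and in normoxia replicate 1. In normoxia replicate 2 the peak had 3 blocks, of 108, 177 and 59 bases. In EU it was the middle gap of a peak with blocks of 79, 176, 177 and 59 bases. This gap was not free of other peaks: in both hypoxia libraries a single-block MALAT1 peak of 448 bases (chr11:65500100-65500547) ran across the whole of it, with a smaller deposited p (3.4e-06 and 2.2e-05 in hypoxia 1 and 2) than the 2-block peak (0.0038 and 0.01). TPM4 (a tropomyosin) had gaps of 4376 and 1486 bases in both hypoxia libraries, EU and normoxia replicate 1, and its 3-block peak of 88, 118 and 93 bases was identical in EU and normoxia replicate 1. GZMA (granzyme A) had a gap of 2721 bases in 4 libraries. Its peak had 5 blocks of 6, 145, 142, 270 and 182 bases in hypoxia replicate 1 and 55, 145, 142, 270 and 182 bases in hypoxia replicate 2. In the EU library the GZMA blocks were 55, 145, 142, 270 and 133 bases, and in normoxia replicate 1 the peak stopped after blocks of 6 and 94 bases. The inner blocks were thus the same wherever they were covered, and only the outer ends moved. SDE2, a protein of replication stress and splicing, had a gap of 2372 bases in both hypoxia libraries, EU and normoxia replicate 2, with blocks of 60 and 140, 10 and 189, 458 and 189, and 309 and 189 bases in that order.

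With all other libraries pooled, the mean difference in sharing between multi-block and single-block peaks was smaller than its spread between libraries, and its sign depended on the libraries kept. A peak with at least 1 base of block in a peak of any other library made up 59.0% of multi-block against 55.7% of single-block peaks in hypoxia replicate 1, 34.5% against 36.4% in hypoxia replicate 2, and 52.8% against 39.1% in EU. In normoxia replicate 1 the shares were 76.2% against 76.5%, and in normoxia replicate 2 58.7% against 63.0%. The mean difference was 2.10 ± 7.05 points, higher in 2 of 5 libraries (SD, n = 5; two-sided exact sign-flip test, p = 0.75, with 0.063 the smallest possible), and it was -0.46 without hypoxia replicate 1 and -2.61 without hypoxia replicate 2. Without the EU library it was 3.94, with multi-block peaks higher in 4 of 4 libraries (two-sided exact sign-flip test, p = 0.125, the smallest 4 libraries allow), and without normoxia replicate 2 it was 5.53, higher in 2 of 4.

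Which library the partner came from differed between the kinds. Multi-block peaks of hypoxia replicate 1 overlapped hypoxia replicate 2 in 53.9% of cases against 43.8% of single-block peaks, and normoxia replicate 2 in 2.51% against 10.9%. Multi-block peaks of the EU library overlapped hypoxia replicate 1 in 26.8% against 12.8%, hypoxia replicate 2 in 43.7% against 26.3%, and normoxia replicate 2 in 10.4% against 16.2%. Counted from the hypoxia lists the order was the other way: EU overlapped 24.6% of multi-block against 30.6% of single-block peaks of hypoxia replicate 1, and 18.7% against 26.1% of those of hypoxia replicate 2. Multi-block peaks of normoxia replicate 1 overlapped hypoxia replicate 1 in 66.7% (exact binomial 95% interval 53.7 to 78.0) against 47.0%, hypoxia replicate 2 in 60.3% against 59.7%, but its own replicate, normoxia 2, in 6.35% (1.76 to 15.5) against 23.5%. In each of the 4 other libraries, normoxia replicate 2 overlapped a smaller share of multi-block than of single-block peaks. The multi-block share of normoxia replicate 2 was itself the lowest, and the pairs share libraries and list lengths, so these shares are descriptions.

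**Figure D4:**
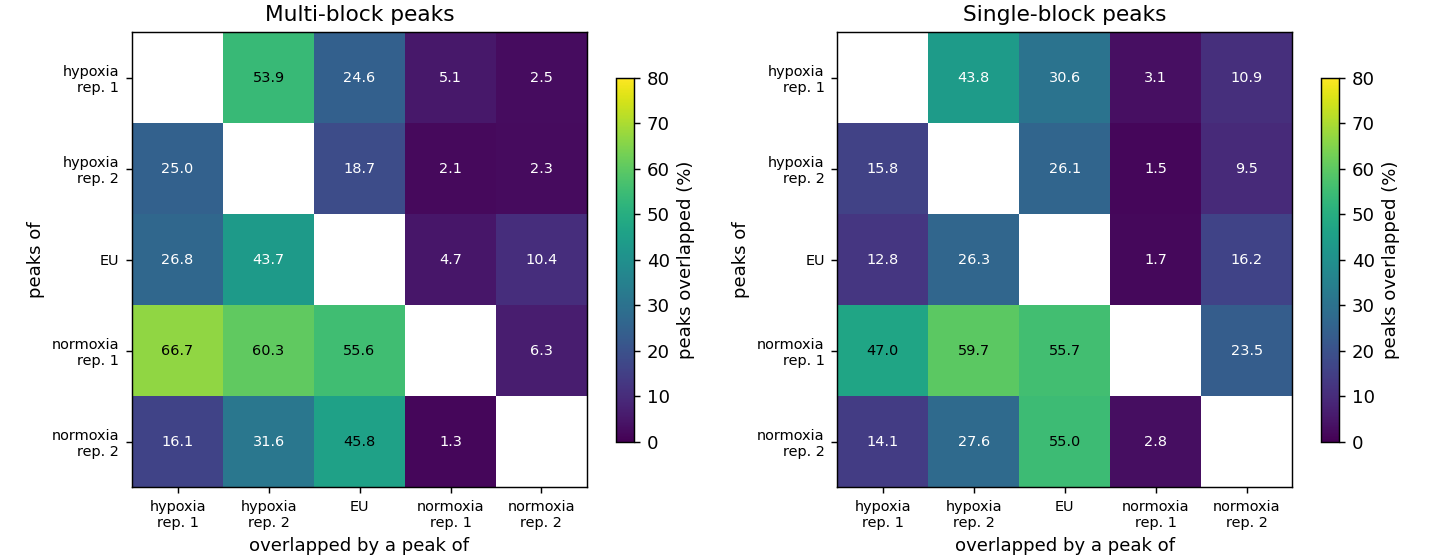
Share of the peaks of 1 library (rows) that share at least 1 base of block and the strand with a peak of another (columns), in percent, for multi-block peaks (left) and single-block peaks (right). The multi-block peaks of normoxia replicate 1 overlap hypoxia replicate 1 in 66.7% and normoxia replicate 2 in 6.3%; the last column is darker on the left than on the right in each of the 4 other rows.

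At the level of genes, 2047 of 4327 gene names with a peak had a multi-block peak in some library. Of these, 1449 had one in 1 library, 431 in 2, 137 in 3, 28 in 4 and 2 in all 5. The 2 were MALAT1 and TLN1, which encodes talin, the link between integrins and actin. TLN1 had 11, 5, 3, 2 and 1 multi-block peaks and 1, 0, 0, 0 and 0 single-block peaks in hypoxia 1, hypoxia 2, EU, normoxia 1 and normoxia 2. Its peaks in normoxia replicate 1 (chr9:35724637-35724942, gap of 105 bases) and normoxia replicate 2 (chr9:35716522-35717261, gap of 589 bases) lay at different places.

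A multi-block peak in both hypoxia and in neither normoxia library was found for 320 of 1677 genes (19.1%), and the reverse for 1 gene (0.0596%). By all peaks the same pattern was found for 492 of 3226 genes (15.3%) and the reverse for 5 (0.155%). By single-block peaks it was found for 348 of 2799 genes (12.4%) and the reverse for 7 (0.25%). The 3 hypoxia-only shares were thus a few points apart, in lists where hypoxia had many more peaks to begin with, and the difference between them was not tested. With only 1 hypoxia library asked for, the count was 1211 without hypoxia replicate 1 and 595 without hypoxia replicate 2. Presence in 2 libraries against 2 allows no p under 0.33 for a gene. Of the 320 genes, 39 had a single-block peak in a normoxia library, 113 (35.3%) had a multi-block peak in EU, and 262 had an identical gap in both hypoxia libraries.

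The 8 hypoxia-only genes with the smallest p were H2AFX, TRDV2, TRAC, IL2RA, TRDC, CCL3 and 2 without a RefSeq match, RP11-124N14.3 and RP11-603J24.9. That p was the smallest deposited value over the 5 libraries, EU included. H2AFX was among the 8 through its EU peak. Its multi-block peaks in hypoxia replicates 1 and 2 had a deposited p of 1.3e-05 and 0.00069. TRDV2 and TRDC are a variable and the constant segment of the T cell receptor delta chain. TRAC, the constant region of the T cell receptor alpha chain, had blocks of 133, 45, 108 and 109 bases in hypoxia replicate 1 and of 231, 45, 108 and 551 bases in hypoxia replicate 2. In EU it had 2 blocks of 89 and 453 bases, and in normoxia replicate 1 it had 2 single-block peaks and no multi-block peak. TRAC also had 1 single-block peak each in hypoxia replicate 1 and EU. IL2RA, the alpha chain of the interleukin 2 receptor, had a 3-block peak of 448 bases in hypoxia replicate 1, an 8-block peak of 1241 bases in hypoxia replicate 2 and a 6-block peak of 497 bases in EU. Single-block peaks in IL2RA numbered 2, 1, 3, 1 and 0 in hypoxia 1, hypoxia 2, EU, normoxia 1 and normoxia 2. CCL3, a chemokine, had the same gap of 420 bases in hypoxia replicates 1 and 2. H2AFX, the gene of the histone variant H2AX and usually described as having no intron, had a gap of 198 bases in hypoxia 1, hypoxia 2 and EU. Single-block H2AFX peaks of the same lists lay over this gap: one of 1223 bases in EU ran across it, and peaks of 294 bases in hypoxia replicate 1 and 343 bases in hypoxia replicate 2 ran into it. In the normoxia libraries H2AFX had 2 and 7 single-block peaks and no multi-block peak. The separate list deposited for the normoxia condition, however, held 1 multi-block peak each in H2AFX, IL2RA and CCL3, and none in the others of the 8. The reverse gene was C6orf106 (current symbol ILRUN), with a 3-block peak in normoxia replicate 1 and a 2-block peak in normoxia replicate 2 that shared no gap. C6orf106 also had 3 single-block peaks in hypoxia replicate 1, and no multi-block peak in the list of the normoxia condition.

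For 370 genes, EU alone of the 5 libraries had a multi-block peak, and 121 of these genes had a single-block peak in another library. CDCA4, a regulator of the cell cycle, had blocks of 150 and 688 bases around a gap of 9063 bases. PLK2, a polo-like kinase, had blocks of 3 and 594 bases around a gap of 136 bases, and COA7, an assembly factor of cytochrome oxidase, blocks of 50 and 545 bases around a gap of 4558 bases.

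Gene groups differed widely in how often their peaks were in more than 1 block. Counts are over the 5 lists, beside 28.7% of all peaks. Since all peaks of a library differ in this share (35.9%, 36.7%, 19.8%, 29.7% and 9.92% in hypoxia 1, hypoxia 2, EU, normoxia 1 and normoxia 2), a group's share also depends on which libraries hold its peaks. Genes listed as lacking introns had 5 multi-block peaks of 133 (3.76%), all of them in MALAT1. H2AFX, with 1 multi-block peak in each of hypoxia 1, hypoxia 2 and EU, was not counted in that list. Replication-dependent histone genes, which have no introns, had 2 of 100 (2.00%). These were in HIST1H3J in hypoxia replicate 1 (blocks of 299 and 81 bases, gap of 1950 bases) and in the pseudogene HIST1H1PS1 in EU (blocks of 127 and 18 bases, gap of 506 bases). ZNF genes, whose zinc fingers are typically encoded in 1 long last exon, had 46 of 554 (8.30%), with 4 of 31 and 14 of 81 in hypoxia replicates 1 and 2, 28 of 392 in EU, none in normoxia replicate 1, which had no ZNF peak, and 0 of 50 in normoxia replicate 2. The 0 of 50 allows a share of up to 6%.

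The ribosomal protein, cell cycle, splicing and exon junction groups lay above the pooled share of all peaks. Ribosomal protein genes had 35 of 86 (40.7%), with 50%, 46.2% and 26.1% in hypoxia 1, hypoxia 2 and EU. Cell cycle genes had 92 of 240 (38.3%). Their share was 40.4%, 37.2% and 37.7% in hypoxia 1, hypoxia 2 and EU, so that in hypoxia replicate 2, which held 121 of the 240 peaks, it was close to the 36.7% of all peaks. RPS4X, a protein of the small ribosomal subunit, had the same gap of 411 bases in both hypoxia libraries, EU and normoxia replicate 1. TOP2A, the topoisomerase of dividing cells, had 4, 4, 3, 0 and 2 multi-block peaks in hypoxia 1, hypoxia 2, EU, normoxia 1 and normoxia 2. Splicing factors had 61 of 148 (41.2%), with 21 of 41, 34 of 75, 6 of 24 and 0 of 8 in hypoxia 1, hypoxia 2, EU and normoxia 2. HNRNPR, an RNA-binding protein of the hnRNP family, had 3, 2 and 2 multi-block peaks in hypoxia 1, hypoxia 2 and EU and no peak under normoxia. Components of the exon junction complex and of nonsense-mediated decay, which acts on it, had 21 of 35 (60.0%), in 7 genes, with 5 of 7, 14 of 20, 0 of 4 and 2 of 4 in hypoxia 1, hypoxia 2, EU and normoxia 1. SMG1, a kinase of nonsense-mediated decay, gave 10 of these, 8 in hypoxia replicate 2 and 2 in normoxia replicate 1.

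Writers and readers of m6A had 21 of 93 (22.6%). The counts were 1 of 8, 10 of 25, 9 of 40, 0 of 1 and 1 of 19 in hypoxia 1, hypoxia 2, EU, normoxia 1 and normoxia 2. EU, where 19.8% of all peaks were multi-block, thus held 40 of the 93. ZC3H13, a subunit of the methyltransferase complex, had 5 multi-block peaks in hypoxia replicate 2, 5 in EU and 1 in normoxia replicate 2. METTL16, a separate m6A methyltransferase, had identical peaks in hypoxia replicate 2 and EU, with blocks of 38 and 62 bases around a gap of 134 bases (chr17:2420535-2420768). HIF targets, the genes switched on by the hypoxia-inducible factor, had 7 of 43 (16.3%). VEGFA, the angiogenic growth factor, had 1 multi-block peak, in hypoxia replicate 2, of 730 and 20 bases around a gap of 679 bases, against 2, 1, 4, 0 and 2 single-block peaks in hypoxia 1, hypoxia 2, EU, normoxia 1 and normoxia 2.

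Immune groups had high shares. T and NK cell markers had 42 of 76 (55.3%), antigen presentation genes 94 of 172 (54.7%) and T cell receptor signalling genes 123 of 258 (47.7%). In the T cell receptor group the counts were 35 of 65, 72 of 135, 15 of 52, 0 of 2 and 1 of 4 peaks in hypoxia 1, hypoxia 2, EU, normoxia 1 and normoxia 2. CD3E, a signalling chain of the T cell receptor complex, had a 4-block peak with gaps of 2286, 1118 and 3702 bases in both hypoxia libraries, and a 3-block peak with the last 2 of these gaps in EU. Single-block CD3E peaks numbered 3, 3 and 1 in hypoxia 1, hypoxia 2 and EU, and CD3E had no peak under normoxia. CD3D had multi-block peaks of 343, 636 and 294 summed bases in hypoxia 1, hypoxia 2 and EU and none under normoxia. CD247, the zeta chain, had the same peak of 150 and 50 bases around a gap of 693 bases in hypoxia replicates 1 and 2. Single-block CD247 peaks numbered 0, 4 and 3 in hypoxia 1, hypoxia 2 and EU.

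Prostate markers had 3 of 33 peaks (9.09%) in more than 1 block. Exon structure was not used here, and the groups also differ in which libraries hold their peaks.

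**Figure D5:**
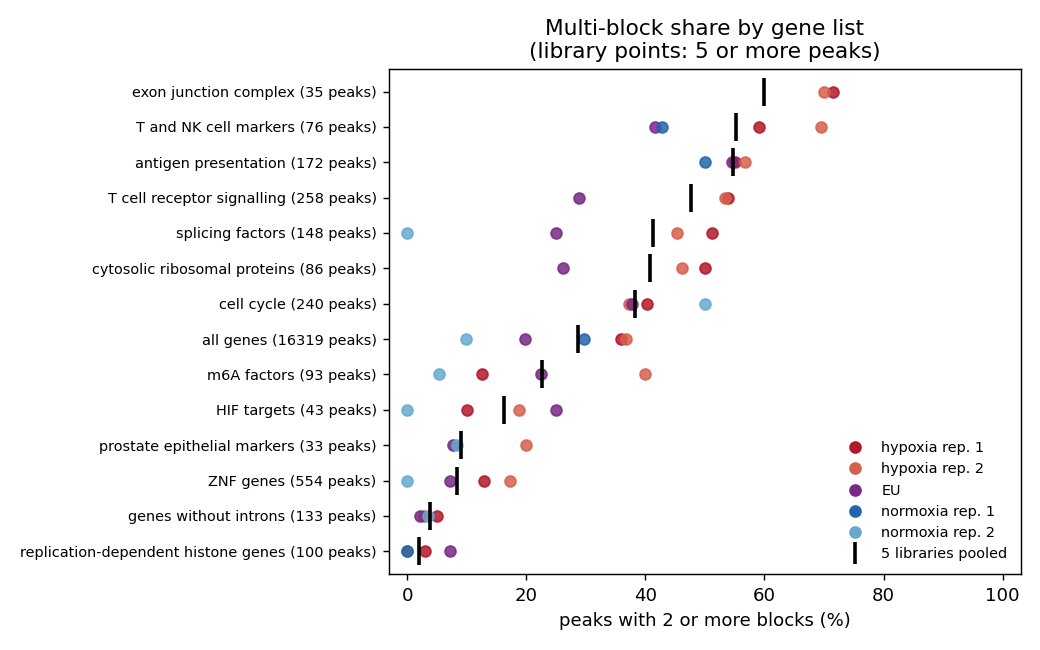
Share of peaks with 2 or more blocks (x axis, percent) for gene groups (rows, with the number of peaks over the 5 lists), as 1 point for each library with at least 5 peaks in the group and a black line for the 5 libraries pooled. Histone genes and genes without introns lie at 2.00% and 3.76%, all genes at 28.7%, and T and NK cell markers and the exon junction complex at 55.3% and 60.0%.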

How the data were processed

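The 5 pulled-down libraries each had a peak list of 12 BED columns without a header, with gene name, strand and blocks, and each condition had 1 more list, with no word on how it was made. STAR and hg38 are named in the submitters' processing notes. Peak caller, threshold, annotation and how inputs and strand were used are not given in the sources used here. P-values deposited by the authors were read from column 5, which the files do not name, so that their meaning rests on the values, and were used to rank peaks within a list.

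Positions are given counting from 1. A gap is the stretch between neighbouring blocks, and gaps are the same when chromosome, strand, first and last base are equal. Gene names were matched by name and position, within 10 kb, to RefSeq (GRCh38.p14): 3988 of 4327 names (92.2%). That table has no strand, so strand came from the lists. Sequences are RefSeq's. Shares of peaks per library were compared by exact permutation tests over libraries (Python 3.11.15, NumPy 2.4.6, SciPy 1.17.1), and functions were tested on simulated data. Peaks of 1 gene and overlapping peaks of 1 list are not independent: 0% to 7.10% of multi-block peaks overlapped another peak of their list.

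Alternatives were the 50% of peaks with the smallest p, peaks of 100 to 200 bases, shortest blocks of at least 25 bases, chromosomes 1 to 22 and X, lists shortened to the shortest, and leaving out each library. The limit on the shortest block was applied to multi-block peaks only. Named genes are those in the most libraries, those with extreme blocks or gaps, those in 1 condition or in EU alone, each by smallest p, up to 3 of each gene list, and CD247, CD3D, CD3E, HNRNPR and VEGFA. Some are not described. VIM, B2M, CBLB and TNIP1 were chosen with their sequences. The members, lists and rule were chosen with earlier results of these data known. Matches to annotated introns and to the DRACH motif were not run without a genome. Whether the replicate numbers pair the samples is not known. Some genes that the naming rule selects are not reported here.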

Additional observations from a re-analysis of the deposited data

Results flagged for a closer look

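The lists made per condition were used in no comparison of the libraries, and both hold multi-block peaks that no library list shows. In the hypoxia list, 2694 of 7669 peaks (35.1%) had more than 1 block, and for 752 of them no gap was found in any of the 5 libraries. In the normoxia list, 335 of 2285 peaks (14.7%) had more than 1 block, and for 160 of them no gap was found in any library. By gap, 1107 of 4227 (26.2%) in the hypoxia list and 186 of 391 (47.6%) in the normoxia list were in no library. These counts are above the limit of 3 counts. There was no control list to set them against.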

How the results depend on the processing

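Of 85 combinations of 8 results and an alternative, 61 were counted as the same, 19 moved and 5 had the opposite sign. For the share, overlap, length, position and rank differences, the same means only the same sign, whatever the size. For the EU difference, the recurring share and the count of hypoxia-only genes, a limit on size was also set. No p passed 0.05 under any setting, since the designs cannot reach it. The share difference between hypoxia and normoxia kept its sign, from 6.58 to 26.4 points without 1 library. It was 16.5 points both with every gap at least 50 bases long and with overlapping peaks of a list reduced to 1, alternatives chosen after seeing the data. The position and length differences kept theirs, from -17.5 to -12.6 points and from 2.75 to 14.8 bases without 1 library. Length was 36.2 bases with shortened lists and 31.1 with 100 to 200 bases. It reached 40 bases with shortest blocks of 25 bases, a limit that removed multi-block peaks only. Position was -7.81 points with lists shortened to the shortest and -21.1 with spans set by a gene's own peaks. Blocked by replicate number, the share difference was 16.5 points (exact sign-flip p = 0.5, the smallest 2 pairs allow). The replicate differences in presence of a multi-block peak had a Pearson r of -0.0399 over 1677 genes. Only 49 and 145 genes had such a peak in normoxia replicates 1 and 2, so this r cannot tell whether same-numbered libraries belong together. The overlap difference had the opposite sign with peaks of 100 to 200 bases (-0.28) and with shortest blocks of 25 bases (-0.91), and ran from -2.61 to 5.53 without 1 library. The rank difference had the opposite sign with lists shortened to the shortest (1.00). EU against the other 4 was -5.78 with 100 to 200 bases, -5.42 with shortest blocks of 25 bases and -11.7 with shortened lists, and -14.3 to -5.36 without 1 library. The recurring share was 23.6% with the 50% of smallest p, 15.3% with 100 to 200 bases, 31.9% with shortest blocks of 25 bases, 17.8% with shortened lists, 28.6% without EU, and 22.4% to 35.6% without 1 library; each of these removes possible partners. Hypoxia-only genes numbered 106 with the 50% of smallest p, 150 with 100 to 200 bases, 9 with shortened lists, 1344 with the condition lists (190 the reverse), and 331 to 1211 without 1 library, where 1 hypoxia library alone asks less of a gene. The cause of the other moves was not tested. The unknown depth limits all counts of peaks.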
